A study of Mus musculus with 6 samples.

Results

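The lipid droplet genes described here are 10 genes fixed by name: the coat proteins *Plin2*, *Plin3*, *Plin4* and *Plin5*, the ester-forming enzymes *Soat1*, *Dgat1* and *Dgat2*, the triglyceride lipase *Pnpla2*, and the lipase inhibitors *Hilpda* and *G0s2*. All 10 were found among the 46078 genes counted in each library. RNA-Seq was performed on 3 stroke infarcts and 3 contralateral cortices from C57BL/6J wild type male mice, whose age is given as 3 months, at 7 weeks after stroke. Stroke was induced with the DH model, in which the distal middle cerebral artery is occluded and the mouse then breathes air low in oxygen, so the contralateral cortices also came from mice that had a stroke and hypoxia. Each infarct sample is tissue chosen by its look at dissection, and the comparison tissue is cortex from the opposite side of the brain. The sample records say neither whether the samples of a region came from separate mice nor whether an infarct and a contralateral cortex came from the same mouse, so the *p* values measure the spread between these samples. Reads counted on genes came to 12146959, 12507336 and 13427057 for infarcts 1, 2 and 3. They came to 19933962, 16610299 and 11943570 in contralateral cortices 1, 2 and 3.

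A lipid droplet is a core of neutral lipid, triglycerides and cholesterol esters, inside a single layer of phospholipid that carries coat proteins. Cells fill the core by joining a fatty acid to diacylglycerol or to cholesterol, and empty it with lipases whose access is set by the coat and by small inhibitor proteins. In macrophages that take up more cholesterol than they export, the droplets that fill the cytoplasm hold mainly cholesterol esters, and such cells are called foamy.

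Of the 8 lipid droplet genes that passed the filter on low counts, 5 were upregulated and 1 was downregulated in infarcts. *Plin2*, the coat protein of droplets in most cells outside adipose tissue, was 62.8-fold higher, and *Soat1*, the enzyme that esterifies cholesterol, was 7.56-fold higher. *Plin3*, *Pnpla2* and *Plin4* were also upregulated, *Dgat2* was downregulated, and *Dgat1* and *Hilpda* were not called. A gene was called at an adjusted *p* under 0.05 (edgeR quasi-likelihood test, Benjamini-Hochberg over 15554 genes) together with a fold change above 2. By the same rule 25.7% of all tested genes were upregulated and 20.9% were downregulated, so calls were common in this comparison. The median log2 fold change of the 8 tested lipid droplet genes was 1.72, and that of all tested genes was 0.03. The 3 infarcts lay entirely above or below the 3 contralateral cortices for 7 of the 8 genes, and 72.3% of all tested genes showed such a separation. In bulk tissue a change in the number of cells of a type cannot be told apart from a change in RNA per cell.

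**Figure D1:**
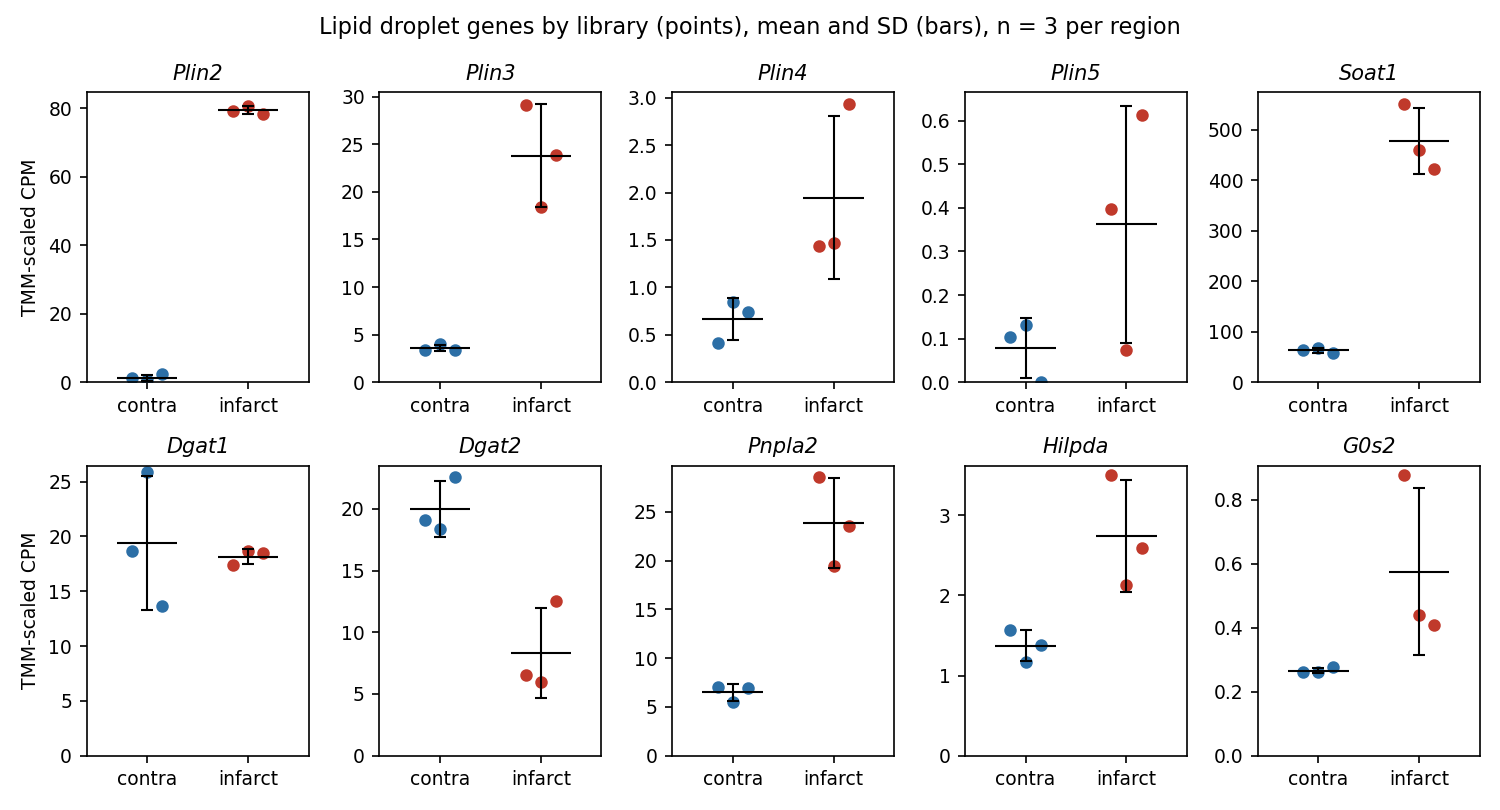
The plot shows the expression of the 10 lipid droplet genes in CPM (counts per 1000000, TMM-scaled, linear axes from 0) for contralateral cortices (blue) and infarcts (red). Points are libraries, horizontal lines are means and bars are SD (*n* = 3 per region). *Plin2* sat between 78.4 and 80.8 CPM in infarcts and between 0.586 and 2.31 CPM in contralateral cortices, whereas the regions overlapped for *Dgat1*.

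The promoters of the genes with the largest fold changes, *Plin2* and *Soat1*, are shown because the letters that hypoxia-inducible factors (ACGTG or GCGTG) and nuclear receptors such as the PPARs (AGGTCA) are known to recognize differ between them. The sequences come from the RefSeq promoter table (GRCm38.p6), in which 8 of the 10 genes, all but *Dgat1* and *Dgat2*, were found and searched. They are read 5′ to 3′ on the gene's minus strand, at chr4:86670061-86670309 for *Plin2* and chr1:156474332-156474578 for *Soat1*. Each stops before the start of the gene in GENCODE, which lies 1 base before the RefSeq start for *Plin2* (base 86670059) and 3 bases before it for *Soat1* (base 156474328), and positions below are counted from the RefSeq start as base 1. Capitals mark the matches to these letters on either strand.
Plin2: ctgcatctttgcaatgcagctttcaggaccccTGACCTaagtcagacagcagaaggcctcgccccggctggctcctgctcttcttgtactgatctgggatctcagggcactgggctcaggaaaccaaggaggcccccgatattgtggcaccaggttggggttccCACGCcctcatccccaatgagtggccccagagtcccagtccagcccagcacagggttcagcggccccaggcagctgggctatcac
Soat1: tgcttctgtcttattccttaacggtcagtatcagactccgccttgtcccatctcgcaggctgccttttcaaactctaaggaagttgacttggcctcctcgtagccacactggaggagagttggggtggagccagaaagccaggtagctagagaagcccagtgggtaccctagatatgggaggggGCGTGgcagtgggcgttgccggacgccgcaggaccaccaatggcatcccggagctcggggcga
In *Plin2* the capitals are TGACCT, which is AGGTCA on the other strand, at bases -218 to -213, and CACGC, which is GCGTG on the other strand, at -86 to -82. ACGTG lies across the RefSeq start of *Plin2* itself, at -3 to 2, overlapping the same letters on the other strand. In *Soat1* the capitals are GCGTG at -66 to -62, a second GCGTG begins at base 1, and AGGTCA is not in the window. Over 32851 promoters of 250 bases before and 50 bases after the start, 19.6% held ACGTG, 32.4% held GCGTG and 16.3% held AGGTCA on either strand. Of the other genes searched, *Hilpda* held ACGTG and GCGTG, *G0s2* held GCGTG, *Plin5* held GCGTG and AGGTCA, and *Plin3*, *Plin4* and *Pnpla2* held none of these letters in the window. These matches are descriptions of sequence, and binding was not measured.

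Perilipins coat the droplet surface and set how readily lipases reach the core. *Plin2* (ENSMUSG00000028494, chromosome 4, 86648386 to 86670060, minus strand of GRCm38) is bound to droplets throughout its life and is degraded when free of lipid. In infarcts 1, 2 and 3 it had 995, 1100 and 1149 counts, or 79.3, 80.8 and 78.4 CPM. In contralateral cortices 1, 2 and 3 it had 21, 9 and 25 counts, or 1.10, 0.586 and 2.31 CPM. Every infarct was far above every contralateral cortex, and the infarcts were close to one another. The means were 79.5 ± 1.19 CPM (SD, *n* = 3) and 1.33 ± 0.884 CPM (SD, *n* = 3), with a log2 fold change of 5.97 ± 0.35 (SE), a 95% interval of the fold from 36.1 to 109 and an adjusted *p* of 1.48e-06 (edgeR). Leaving out 1 library at a time gave log2 fold changes from 5.60 to 6.52. The *Plin2* fold change ranked 390 of 15554 from the top.

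*Plin3* (ENSMUSG00000024197, chromosome 17, 56277476 to 56292873, minus strand) is a soluble perilipin that moves onto newly formed droplets. Its expression was 29.2, 18.4 and 23.9 CPM in infarcts against 3.40, 3.97 and 3.41 CPM in contralateral cortices. The regions did not overlap, and infarct 1 was the highest. The log2 fold change was 2.72 ± 0.22 (SE), a 6.60-fold difference, with an adjusted *p* of 5.53e-06 (edgeR).

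*Plin4* and *Plin5* lie near *Plin3* on the minus strand of chromosome 17, at 56100591 to 56109803 (ENSMUSG00000002831) and 56111601 to 56117596 (ENSMUSG00000011305). *Plin4*, a perilipin known mainly from adipose tissue and muscle, had 18, 20 and 43 counts in infarcts against 8, 13 and 8 in contralateral cortices. The regions did not overlap, but infarct 3 alone stood well above the rest. The log2 fold change was 1.57 ± 0.48 (SE) with an adjusted *p* of 0.0155 (edgeR). Without infarct 3 it was 1.15 with an adjusted *p* of 0.0762, without contralateral cortex 1 it was 1.27 with an adjusted *p* of 0.0738 (edgeR), and in both cases *Plin4* was no longer called. *Plin5*, which tethers droplets to mitochondria in oxidative tissues, had 5, 1 and 9 counts in infarcts against 2, 2 and 0 in contralateral cortices. The regions overlapped, and *Plin5* did not pass the filter on low counts. With DESeq2, which kept it, its log2 fold change was 2.13 ± 1.46 (SE) with an adjusted *p* of 0.222, and without the filter edgeR gave an adjusted *p* of 0.158, so a difference was not detectable at this depth.

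The make-up of the perilipins was also described within each library, which needs no scaling between libraries. This and the ratios below follow from the same counts as the fold changes and are not independent of them. Per kilobase of exon, *Plin2* supplied 73.5%, 81.7% and 75.8% of the perilipin counts in infarcts. In contralateral cortices it supplied 23.5%, 11.7% and 39.0%, and *Plin3* was the most abundant perilipin there with 67.4%, 73.6% and 53.5%. *Plin2* thus led in every infarct and *Plin3* in every contralateral cortex. The share of *Plin2* did not overlap between regions, and the ratio of its geometric means was 3.49 (log2 difference 1.80). The two-sided exact permutation *p* was 0.1 (adjusted over 4 ratios 0.1), the smallest that 3 against 3 libraries can give. The contralateral shares rested on few reads. As plain counts they were 21 of 96, 9 of 85 and 25 of 70, with 95% Wilson intervals of 14.8% to 31.1%, 5.67% to 18.9% and 25.5% to 47.4%, which cover counting error only.

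**Figure D2:**
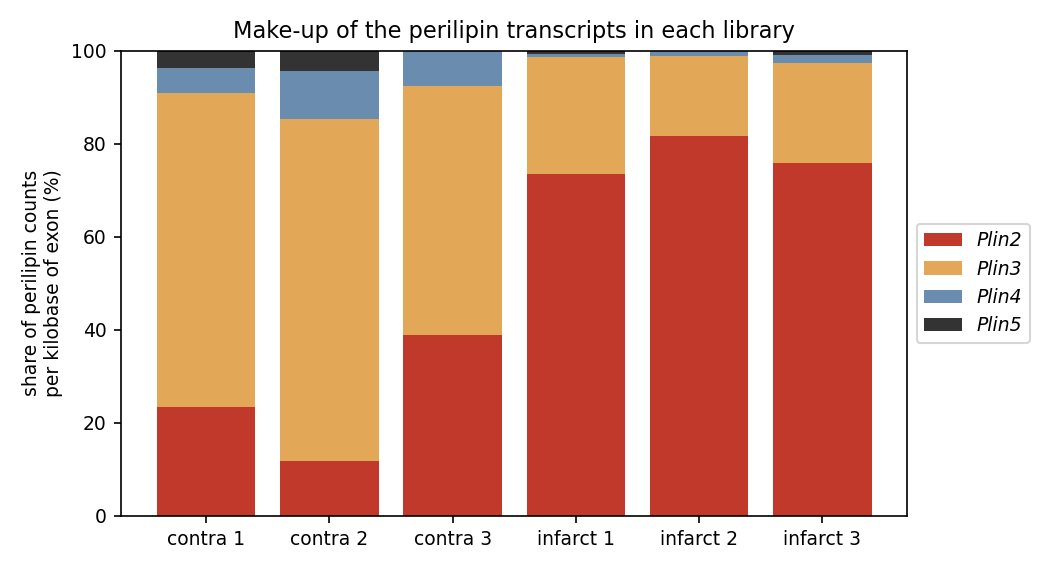
Stacked bars give the share (%) of each perilipin among the perilipin counts per kilobase of exon in each of the 6 libraries. *Plin2* makes up 73.5% or more in each infarct and 39.0% or less in each contralateral cortex, where *Plin3* makes up the largest share.

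Enzymes that fill the droplet core moved in different directions. *Soat1* (ENSMUSG00000026600, chromosome 1, 156424525 to 156474331, minus strand) encodes the acyltransferase that makes cholesterol esters in macrophages and most other cells. It had 6909, 6272 and 6181 counts in infarcts, or 550, 461 and 422 CPM, against 1215, 1035 and 634 counts in contralateral cortices, or 63.5, 67.4 and 58.5 CPM. Every infarct exceeded every contralateral cortex several times over. The means were 478 ± 65.9 and 63.1 ± 4.45 CPM (SD, *n* = 3 each), with a log2 fold change of 2.92 ± 0.16 (SE) and an adjusted *p* of 5.84e-07 (edgeR). Its paralog *Soat2*, the isoform of liver and intestine, had 9, 22 and 18 counts in infarcts against 3, 4 and 1 in contralateral cortices, and it did not pass the filter on low counts.

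*Dgat1* and *Dgat2* catalyze the last step of triglyceride synthesis through unrelated proteins. *Dgat1* (ENSMUSG00000022555, chromosome 15, 76502015 to 76511953, minus strand) was at 17.4, 18.7 and 18.5 CPM in infarcts against 18.6, 25.8 and 13.7 CPM in contralateral cortices. All 3 infarcts lay within the range of the contralateral cortices. The log2 fold change was -0.10 with a 95% interval of -0.61 to 0.41 and an adjusted *p* of 0.727 (edgeR), so the data leave room for a change of either sign of that size, and scaling by library totals turned it to 0.11. *Dgat2* (ENSMUSG00000030747, chromosome 7, 99153658 to 99182719, minus strand) was at 6.53, 5.95 and 12.5 CPM in infarcts against 19.1, 18.4 and 22.6 CPM in contralateral cortices. The regions did not overlap, and infarct 3 lay nearest to the contralateral cortices. Its log2 fold change was -1.26 ± 0.28 (SE) with an adjusted *p* of 0.0031 (edgeR), which is 2.39-fold higher expression in contralateral cortices. Without infarct 3 the log2 fold change was -1.66. Tested against a fold change of 2 rather than against no change (glmTreat), the *Dgat2* difference had an adjusted *p* of 0.167 (edgeR).

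Within each library, counts of *Soat1* per kilobase exceeded those of *Dgat1* and *Dgat2* together by 7.21, 5.86 and 4.26 times in infarcts. In contralateral cortices the ratios were 0.528, 0.478 and 0.506. Whether these fall below 1 rests on the exon lengths used, 9791 bases for *Soat1*, 3056 for *Dgat1* and 3083 for *Dgat2*. In plain counts *Soat1* also exceeded both together in each contralateral cortex, where *Dgat1* had 357, 397 and 148 counts and *Dgat2* had 365, 282 and 245. The ratio of geometric means was 11.2 (log2 difference 3.49, two-sided exact permutation *p* = 0.1, adjusted over 4 ratios 0.1), where 0.1 is the smallest *p* that 3 against 3 libraries can give, and in plain counts the log2 difference was 3.49. *Dgat2* over *Dgat1* was 0.373, 0.316 and 0.669 in infarcts against 1.01, 0.704 and 1.64 in contralateral cortices, a log2 difference of -1.30 (two-sided exact permutation *p* = 0.1, adjusted 0.1). Infarct 3 came close to contralateral cortex 2 in this ratio.

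*Pnpla2* (ENSMUSG00000025509, chromosome 7, 141455198 to 141460743, plus strand) encodes adipose triglyceride lipase, which removes the first fatty acid from a stored triglyceride. It was at 28.6, 19.5 and 23.5 CPM in infarcts against 7.05, 5.47 and 6.92 CPM in contralateral cortices. The regions were well apart. The log2 fold change was 1.88 ± 0.21 (SE), a 3.68-fold difference, with an adjusted *p* of 3.78e-05 (edgeR).

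*Hilpda* and *G0s2* encode small proteins that bind this lipase and inhibit it. *Hilpda* (ENSMUSG00000043421, chromosome 6, 29272488 to 29275446, plus strand), a gene known to be induced by hypoxia and by fatty acids, had 44, 29 and 38 counts in infarcts against 30, 18 and 15 in contralateral cortices. Scaled, these were 3.50, 2.13 and 2.59 CPM against 1.57, 1.17 and 1.38 CPM, with no overlap between regions. The log2 fold change was 0.98 ± 0.35 (SE) with an adjusted *p* of 0.0303 (edgeR), and its fold of 1.98 lay just under the required 2. The result lay at both thresholds. Scaling by library totals raised the log2 fold change to 1.18 (adjusted *p* = 0.0132, edgeR), whereas the adjusted *p* was 0.0566 with DESeq2 and 0.0969 in edgeR without contralateral cortex 2. *G0s2* (ENSMUSG00000009633, chromosome 1, 193272161 to 193273217, minus strand) had 11, 6 and 6 counts in infarcts against 5, 4 and 3 in contralateral cortices, and it did not pass the filter on low counts. Without that filter its log2 fold change was 1.10 ± 0.82 (SE) with an adjusted *p* of 0.297 (edgeR). The summed counts per kilobase of both inhibitors over those of *Pnpla2* were 0.442, 0.378 and 0.362 in infarcts against 0.737, 0.752 and 0.686 in contralateral cortices. The inhibitors were therefore fewer per lipase transcript in each infarct, with a log2 difference of -0.88 (two-sided exact permutation *p* = 0.1, adjusted 0.1).

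**Figure D3:**
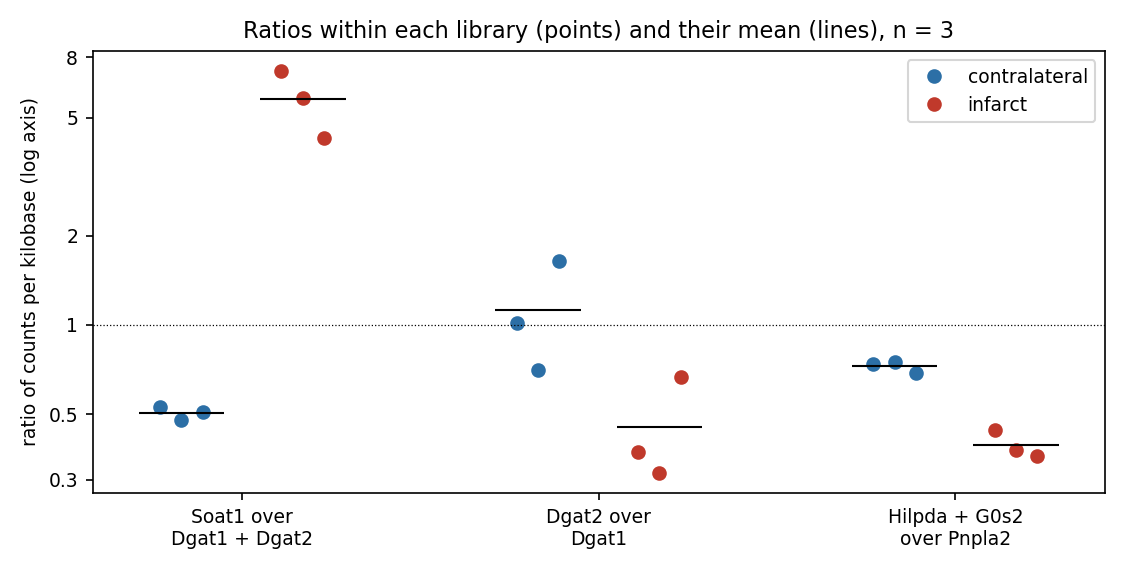
Points are ratios of counts per kilobase within each library (log axis) and lines are means of the 3 libraries, in blue for contralateral cortices and red for infarcts. *Soat1* over *Dgat1* plus *Dgat2* lies between 4.26 and 7.21 in infarcts and near 0.5 in contralateral cortices, and the other ratios are lower in infarcts.

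**Figure D4:**
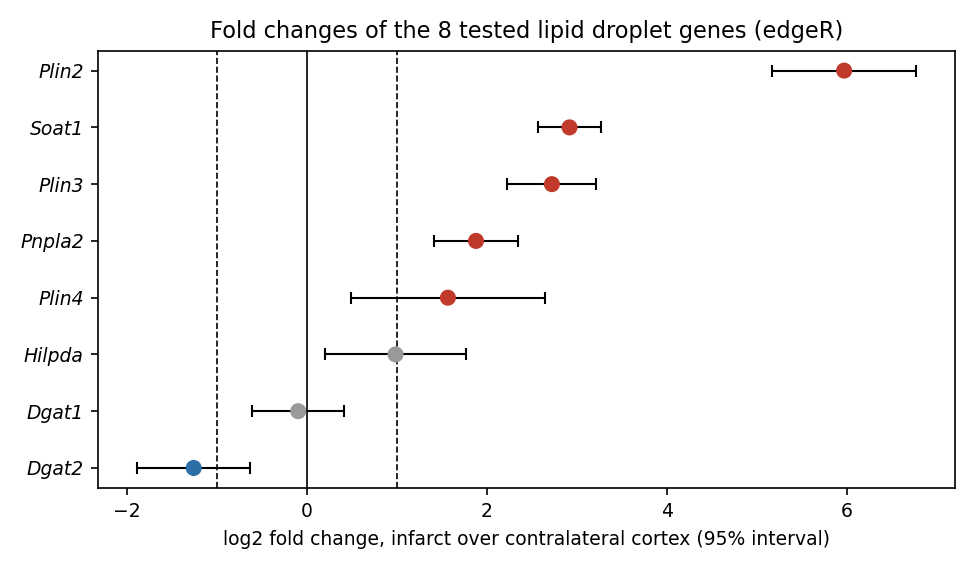
Log2 fold changes (infarct over contralateral cortex) of the 8 tested genes are drawn with 95% intervals, and dashed lines mark a fold change of 2. Red genes were upregulated, blue was downregulated and gray genes were not called, and the intervals of *Plin4*, *Hilpda* and *Dgat2* cross a dashed line.

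Ordered by level per kilobase of exon, the genes stood differently in each region. In contralateral cortices *Dgat2*, *Soat1* and *Dgat1* were highest at 6.49, 6.45 and 6.34 CPM per kilobase, and these values overlapped with one another. *Pnpla2*, *Hilpda*, *Plin3* and *Plin2* followed at 2.15, 1.25, 0.949 and 0.379 CPM per kilobase. Only *Plin2* and *G0s2* overlapped among the neighbors lower in that order. In infarcts *Soat1* was highest at 48.8 and *Plin2* came next at 22.6 CPM per kilobase, each clear of its neighbors. *Pnpla2*, *Plin3* and *Dgat1*, at 7.90, 6.29 and 5.95 CPM per kilobase, overlapped in sequence, as did *Dgat2* and *Hilpda* at 2.70 and 2.49. *G0s2*, *Plin4* and *Plin5* were lowest in infarcts at 0.661, 0.337 and 0.173 CPM per kilobase. The length used is that of all annotated exons of a gene, which understates the level of a gene whose shorter transcripts dominate.

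Genes whose pattern over the 6 libraries was most like that of *Plin2* were found among 9674 tested genes averaging at least 10 CPM, by the root mean square difference of log2 CPM after centering each gene. The smallest differences were those of *Neurl3* (0.30), *Ccl9* (0.31), *Sdc1* (0.32), *Myo1f* (0.33) and *Aoah* (0.35). With regions this far apart, the measure mainly picks genes whose fold between regions is near that of *Plin2*. Their log2 fold changes were 5.69 to 6.53. Their contralateral means were 0.660 to 1.94 CPM, so they passed the limit of 10 CPM through the infarcts. *Neurl3* is a ubiquitin ligase, *Ccl9* is a chemokine of myeloid cells, *Sdc1* is a cell surface proteoglycan that also marks plasma cells, *Myo1f* is a motor protein of leukocytes and *Aoah* is a hydrolase of bacterial lipid A. *Ccl9* stood at 73.6 CPM in infarcts against 1.21 CPM in contralateral cortices, close to the values of *Plin2*.

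Beside each list below, 25.7% of all tested genes were upregulated and 20.9% were downregulated. Of 15 genes for coat, growth and assembly beyond the perilipins named above, 9 were tested, 3 were upregulated and 0 were downregulated, with a median log2 fold change of 0.70, so the upregulated share was near that of all genes. *Hsd17b11*, a dehydrogenase found on droplets, had a log2 fold change of 1.96 ± 0.14 (SE, adjusted *p* = 2.67e-06, edgeR), and *Ldaf1*, the seipin partner at sites of droplet assembly, had 1.42 ± 0.23 (SE, adjusted *p* = 0.000489, edgeR). The third was *Aup1*, of whose exon bases 22.99% overlap a gene on the other strand. *Bscl2*, which encodes seipin itself, had a value of -0.09 (adjusted *p* = 0.62, edgeR), and *Fitm2*, needed for droplets to bud from the endoplasmic reticulum, had -0.92 (adjusted *p* = 0.00105, edgeR), short of the fold required. *Plin1*, the adipocyte perilipin, had 0, 0 and 6 counts in infarcts against 0, 0 and 1 in contralateral cortices, and *Cidec* had 0 counts in all 6 libraries.

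Enzymes ahead of the last step of esterification showed no shared direction. Among 5 acyl-CoA synthetases, which activate fatty acids, 0 were upregulated and 1 was downregulated, with a median of -0.50. That was *Acsl6*, the synthetase of neurons and astrocytes, at 79.6 ± 13.6 CPM in infarcts against 257 ± 19.1 CPM in contralateral cortices (SD, *n* = 3 each). *Acsl4* had a log2 fold change of -0.77, and the highest values were 0.29 for *Acsl5* and -0.03 for *Acsl1*. Of 12 tested genes of 16 in glycerolipid and sterol ester synthesis, 3 were upregulated and 1 was downregulated, with a median of -0.09. *Agpat2*, which makes phosphatidic acid and is known from adipose tissue, was at 12.5, 11.8 and 9.42 CPM in infarcts against 0.731, 0.521 and 1.02 CPM in contralateral cortices. No contralateral cortex approached an infarct, and the log2 fold change was 3.92 ± 0.31 (SE, adjusted *p* = 3.42e-06, edgeR). The lipin *Lpin3* had 18, 31 and 33 counts in infarcts against 5, 2 and 5 in contralateral cortices (log2 fold change 2.85 ± 0.55, SE), *Lpin1* was also upregulated, and *Agpat3* was downregulated at -1.06. *Agpat5* had -0.78, and 18.95% of its exon bases overlap a gene on the other strand.

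Of 9 tested genes of 12 in the list of hydrolases and their cofactors, 3 were upregulated and 2 were downregulated, shares near those of all genes (25.7% and 20.9%), with a median log2 fold change of 0.23. *Lipa*, the acid lipase that frees cholesterol and fatty acids from esters inside the lysosome, was at 707, 610 and 521 CPM in infarcts against 15.7, 14.7 and 19.4 CPM in contralateral cortices. Infarcts were far above, with a log2 fold change of 5.21 ± 0.18 (SE, adjusted *p* = 1.64e-07, edgeR). *Abhd5*, the coactivator of the lipase encoded by *Pnpla2*, had a log2 fold change of 1.30 ± 0.15 (SE, adjusted *p* = 5.33e-05, edgeR), and 15.95% of its exon bases overlap a gene on the other strand. The third upregulated gene was *Spart*, which is not a hydrolase. *Pnpla3* was at 0.319, 0.587 and 0.956 CPM in infarcts against 8.88, 5.27 and 2.77 CPM in contralateral cortices, and *Abhd6*, a monoacylglycerol lipase of neurons, had a log2 fold change of -1.58 ± 0.24 (SE, adjusted *p* = 0.000316, edgeR). *Pnpla3*, a paralog of *Pnpla2* that binds the same coactivator, thus moved opposite to it, with a log2 fold change of -3.16 ± 0.55 (SE, adjusted *p* = 0.000535, edgeR).

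Genes for uptake and cytosolic binding of fatty acids held the largest fold changes of the pathway lists. Of 11 genes, 6 were upregulated and 1 was downregulated, with a median log2 fold change of 1.32. *Cd36*, a receptor for fatty acids and oxidized lipoprotein, had a log2 fold change of 7.98 ± 0.20 (SE, adjusted *p* = 1.46e-07, edgeR). *Fabp4*, a fatty acid binding protein of adipocytes and macrophages, was at 10.4, 11.5 and 11.7 CPM in infarcts with 0 counts in each contralateral cortex, which is at least 53.5-fold higher when each of those libraries is set to 3 counts. *Fabp3* had -1.06 (adjusted *p* = 0.0417, edgeR) and *Vldlr* had -0.91 (adjusted *p* = 0.000394, edgeR), of which *Fabp3* was called. Of the exon bases of *Fabp3*, 19.56% overlap a gene on the other strand.

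Of 12 tested genes of mitochondrial fatty acid entry and oxidation, 9 were upregulated and 0 were downregulated, with a median log2 fold change of 1.52. *Acads*, the dehydrogenase of short chains, had 2.06 ± 0.22 (SE, adjusted *p* = 3.13e-05, edgeR), and *Cpt2*, of the carnitine shuttle, had 2.05 ± 0.22 (SE, adjusted *p* = 3.01e-05, edgeR). The lowest values were 0.90 for *Acadm* and -0.94 for *Cpt1c*, the brain carnitine palmitoyltransferase isoform, and neither was called.

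*Plin2* is a known target of the PPAR receptors and *Hilpda* of hypoxia-inducible factors, so other genes of both lists were counted. Of 11 tested genes of the PPAR list, 5 were upregulated and 0 were downregulated, with a median of 0.98. *Ucp2*, an inner mitochondrial membrane carrier, had a log2 fold change of 4.72 ± 0.23 (SE, adjusted *p* = 5.92e-07, edgeR). *Ppara* had -0.75 (adjusted *p* = 0.095, edgeR). Of 18 genes of the hypoxia-inducible factor list, 5 were upregulated, a share near the 25.7% of all genes, and 1 was downregulated, with a median of 0.34. *Car9*, a carbonic anhydrase used as a marker of hypoxia, had 28, 23 and 46 counts in infarcts against 0, 2 and 1 in contralateral cortices, at least 11.2-fold higher with each contralateral library set to 3 counts. *Adm* had 2.28 ± 0.44 (SE, adjusted *p* = 0.00107, edgeR), whereas *Bnip3*, of whose exon bases 22.25% overlap a gene on the other strand, had -1.69 ± 0.17 (SE, adjusted *p* = 1.82e-05, edgeR). *Vegfa* had -0.80 (adjusted *p* = 0.0318, edgeR) with overlapping regions.

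**Figure D5:**
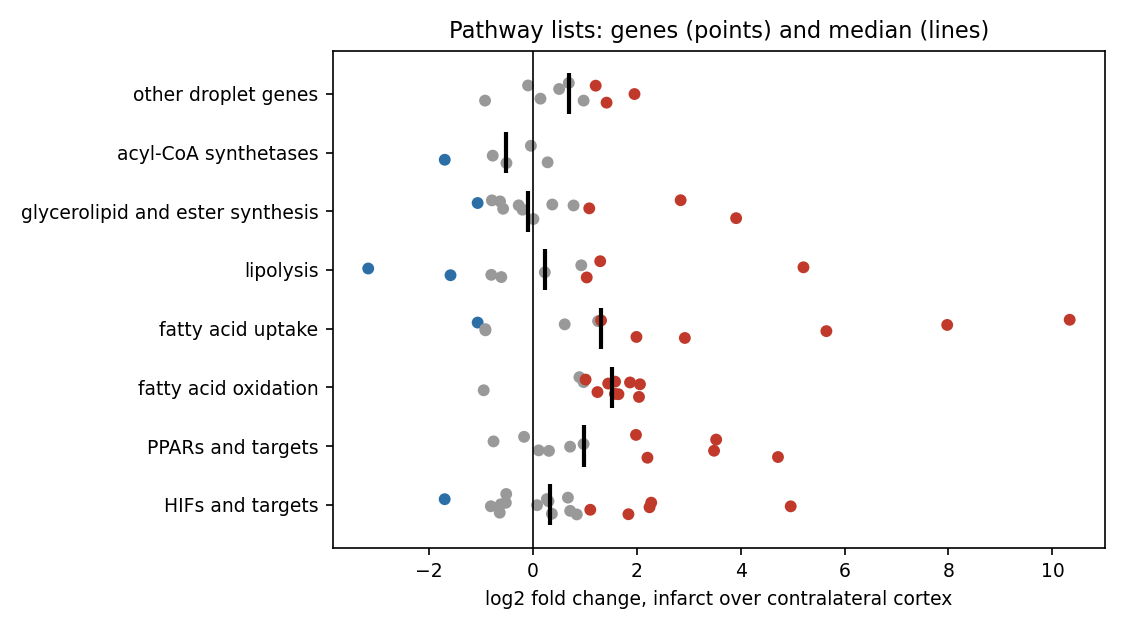
Each point is the log2 fold change (infarct over contralateral cortex) of 1 tested gene, grouped by pathway list, and black lines are list medians. Red points were upregulated, blue were downregulated and gray were not called. The median lies at 1.52 for fatty acid oxidation and at -0.50 for acyl-CoA synthetases. The farthest point at the right is *Fabp4*, whose contralateral counts are all 0, so its fitted position is not a measured fold.

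The lipid droplet genes moved in tissue whose cell type markers also differed. Summed over 8 macrophage markers, expression was 9071, 7833 and 5498 CPM in infarcts against 81.5, 70.5 and 84.7 CPM in contralateral cortices. Of the 8 markers 7 were upregulated, and *Lyz2* was the most abundant in infarcts, at 6449 CPM against 18.5 CPM in contralateral cortices. *Cd163* was the marker that was not called. Infarct 3 had the lowest macrophage sum. The 8 microglial markers summed to 1417, 1270 and 1281 CPM in infarcts against 420, 384 and 470 CPM in contralateral cortices, with 4 upregulated. *Csf1r*, the most abundant of them and also expressed by macrophages, was at 459 and 118 CPM.

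Neuronal markers were lower throughout the infarcts, with 8 of 8 downregulated and *Syt1* the most abundant in contralateral cortices. They summed to 694, 932 and 2074 CPM in infarcts against 10260, 10662 and 11185 CPM in contralateral cortices. Infarct 3 had the highest neuronal sum of the infarcts. Astrocyte markers summed to 5167, 5532 and 7691 CPM against 13637, 14440 and 13565 CPM, led by *Slc1a2*, with 2 of 8 upregulated and 1 downregulated. Oligodendrocyte markers summed to 4349, 5009 and 6986 CPM against 2256, 2183 and 2606 CPM, with 4 of 8 upregulated. For both of these glial lists infarct 3 was again the highest infarct.

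Of 8 fibroblast and leptomeningeal markers, 8 were upregulated, and *Col3a1* was the most abundant in infarcts. The sums were 8278, 8873 and 7078 CPM in infarcts against 209, 168 and 216 CPM in contralateral cortices. Endothelial markers summed to 631, 494 and 453 CPM against 344, 390 and 353 CPM, with 4 of 8 upregulated. Among them *Slco1a4* had the highest mean in contralateral cortices. B cell and plasma cell markers summed to 2389, 955 and 344 CPM against 2.51, 3.13 and 6.09 CPM, led by *Jchain*, and T cell markers to 162, 59.9 and 41.6 CPM against 2.56, 3.71 and 3.23 CPM, led by *Lck*, with 7 of 7 upregulated in each list. These lymphocyte sums varied several times over among the infarcts. The part of any cell type in the lipid droplet results was not tested.

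Few counts fell on markers of adipocytes, the cells that store most neutral lipid in the body. Their 8 markers summed to 10.6, 11.7 and 12.5 CPM in infarcts against 1.83, 0.977 and 2.03 CPM in contralateral cortices, nearly all of it *Fabp4* in infarcts, and 2 were tested, of which *Fabp4* was upregulated and *Adrb3* was downregulated. *Cidec* and *Cfd* had 0 counts in every library, and *Adipoq* had 0, 2 and 2 counts in infarcts and 0 in each contralateral cortex. Skeletal muscle markers, checked because *Plin4* and *Plin5* are muscle genes, summed to 5.66, 3.82 and 3.82 CPM in infarcts against 21.3, 22.3 and 27.3 CPM in contralateral cortices, led by *Pvalb*, which interneurons also express. Of the 3 tested muscle markers 0 were upregulated and 2 were downregulated, and the others did not pass the filter on low counts. Without that filter edgeR tested all 8, with 2 upregulated and 2 downregulated. With DESeq2, 1 was upregulated and 2 were downregulated of 6 tested. Red blood cell markers summed to 30.2, 8.08 and 10.4 CPM against 4.28, 0.846 and 3.14 CPM, led by *Hbb-bs*, with 2 of 2 tested genes upregulated.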

How the data were processed

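RNA-Seq counts from 3 infarcts and 3 contralateral cortices were analyzed. Per the submitters' processing notes and the methods, the authors demultiplexed reads with bcl2fastq 2.19, trimmed them with Trimmomatic 0.32, aligned them to GRCm38 with STAR 2.5.2b and deposited raw, unnormalized htseq-count counts per Ensembl gene. The kit was stranded. The methods name BioMart as the source of gene annotation. The annotation used for counting, the htseq-count version and the strand setting are not given in the sources used here. Genes received 65.7% to 73.4% of each library's tally. Entries that name no gene (26.6% to 34.3%) were left out.

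Symbols, positions and exon lengths came from GENCODE M21, which held 45229 of the 46078 identifiers. *Ldaf1* and *Spart* were matched as Tmem159 and Spg20. Promoter sequences came from RefSeq. Counts were filtered with filterByExpr, scaled with TMM and tested with the quasi-likelihood test of edgeR 4.0.16 in R 4.3.3 (biological coefficient of variation 0.22), with Benjamini-Hochberg adjustment. CPM are counts per 1000000 of the scaled library totals. Ratios within a library were compared with exact permutation tests. Tested on simulated data with 15314 genes, the procedure called 192 of 193 genes changed 4-fold (99.5%) and 4 unchanged genes. The simulation gave every gene the same coefficient of variation and changed a far smaller share of genes than was called here. The share found there need not hold for these data. Summaries and plots used SciPy 1.17.1, pandas 2.3.3 and matplotlib 3.10.9 under Python 3.11.15.

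The genes described and the lists beside them were chosen with earlier results of these data known. Named genes are the 10 lipid droplet genes, the 2 highest and 2 lowest log2 fold changes of each pathway list, the leading marker of each cell type list, and the 5 genes nearest to *Plin2*. *Soat2*, *Plin1*, *Cidec*, *Cfd*, *Adipoq*, *Adrb3*, *Cd163*, *Aup1*, *Lpin1* and *Spart* were named after their values were seen. Some genes that the rule covers are not reported here. The alternatives were DESeq2 1.42.0, limma 3.58.1 voom, RLE, upper quartile and library-total scaling, other filters on low counts, no fold change threshold, glmTreat, thinned counts, a replicate block and each library left out in turn.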

Additional observations from a re-analysis of the deposited data

How the results depend on the processing

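*Plin2*, *Plin3*, *Soat1* and *Pnpla2* kept their direction and their call under every alternative that gave a value, with log2 fold changes of 5.60 to 6.52, 2.57 to 2.92, 2.82 to 3.12 and 1.75 to 2.08. Under the minimum of 10 counts in every library, *Plin2* and *Plin4* had no value. Against a fold change of 2 (glmTreat), *Plin4* at 1.57 (adjusted *p* = 0.12, edgeR) and *Dgat2* at -1.26 were not called, which left 0 lipid droplet genes downregulated. With 1 library left out at a time, 4 to 6 were upregulated, *Plin4* ranged from 1.15 to 1.79, *Dgat2* from -1.66 to -1.04, *Dgat1* from -0.29 to 0.16 and *Hilpda* from 0.79 to 1.16. *Dgat1* changed sign with library totals, at 0.11, and without contralateral cortex 2, at 0.16. *Hilpda* was called with library totals (1.18), with at least 10 counts in every library (1.01), with thinned counts (1.16) and without a fold threshold (0.98), and without infarct 2 (1.16) or infarct 3 (1.04). Its adjusted *p* rose above 0.05 with DESeq2 (0.0566), with no filter on low counts (0.055, edgeR), with the replicate block (0.0547, edgeR), and without infarct 1 (0.0944) or contralateral cortex 1 (0.0569), 2 (0.0969) or 3 (0.0715, edgeR). *G0s2* had an adjusted *p* of 0.324 with DESeq2. Library totals moved the median of all genes by 0.20, and the other scalings moved it by far less.

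DESeq2 called 4434 genes upregulated and 3550 downregulated, and the counts under the other alternatives stayed within 1.5 times the main ones. The deviations of same-numbered infarcts and contralateral cortices correlated at -0.16, 0.09 and -0.01, which gives no evidence that the numbers pair the samples, and which tissues share a mouse is not given. With the replicate block, 3945 genes were upregulated and 3222 downregulated, and each lipid droplet gene kept its call, with *Plin4* at 1.49 and *Hilpda* at 0.98. The ratios within a library kept their direction under each alternative, and their exact *p* cannot fall below 0.1. With 9 to 25 *Plin2* counts in contralateral cortices and under 12 counts of *Plin5* and *G0s2* in any library, depth limits the precision of the first fold, which was 6.00 on the log2 scale with thinned counts (SE 0.52), and any statement on the others.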
